A study of Rattus norvegicus with 9 samples.

Results

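The genes described here are 36 rat genes of the cellular response to low oxygen and of glycolysis, chosen by name and not by their values. They comprise 4 genes of oxygen sensing, 9 targets of the hypoxia-inducible factors outside glycolysis, 4 carriers of glucose and lactate, 11 genes of upper glycolysis and 8 of lower glycolysis, including lactate dehydrogenase. All 36 were found among the 34267 genes of the deposited table, each on 1 row. Poly-A RNA was sequenced from primary cultures of wild-type rat cartilage progenitor cells taken from condylar cartilage, with 3 libraries in each of 3 groups. The control group was cells at passage 3 (P3), and the model of replicative senescence was cells grown on to passage 9 (P9). The model of mechanical degeneration was passage 3 cells under flow fluid shear stress (FFSS). The strength and length of the flow, the oxygen level of the cultures and the age and number of the animals are not given in the sources used here, and no source states that replicate libraries are separate cultures, so the p-values below measure only the spread between these libraries. The design asks what the 2 models have in common against a shared control.

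In oxygenated cells, prolyl hydroxylases (the Egln genes) mark the alpha subunits HIF-1 alpha (Hif1a) and HIF-2 alpha (Epas1) for destruction, so that much of this pathway is set at the protein level and is not seen in mRNA. When oxygen falls the alpha subunits persist, pair with ARNT, and bind DNA at a short core motif near genes for glucose uptake, glycolysis, lactate export, blood vessel growth and mitophagy. Cartilage has no blood vessels, and its cells are known to make much of their ATP by glycolysis.

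Values are FPKM, fragments scaled to the length of the gene model and to the depth of the library, as the authors deposited them. Changes are differences of log2(FPKM + 1), so those of low genes are understated. A gene was called at an adjusted p under 0.05 in a limma fit over the 13059 genes that reached 1 FPKM in 3 libraries or more. Of the 36 genes, 33 were tested. The 3 that were not are Egln3, an oxygen-sensing prolyl hydroxylase, Pfkfb4, a regulator of phosphofructokinase, and Eno2, the neuronal enolase. Egln3 was at 0 to 0.0515 FPKM in the P3 and P9 libraries and at 1.97, 0.39 and 0.645 FPKM in the FFSS libraries, with 0 to 83 fragments a library. Pfkfb4 lay between 0.48 and 0.885 FPKM and Eno2 between 0.276 and 1.79 FPKM in all 9 libraries.

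The 9 libraries held between 13264930 and 15323790 fragments. Of 12 cartilage progenitor markers, 10 were at 1 FPKM or more in every library. The exceptions were Col2a1, the main collagen of mature cartilage, at 0 to 1.06 FPKM, and Prg4, which makes lubricin, at 0 to 41.9 FPKM. The summed level of the 12 did not overlap between groups, at 4355 to 4585 FPKM for P3, 5742 to 6260 FPKM for P9 and 3555 to 3842 FPKM for FFSS. Acan, the cartilage proteoglycan aggrecan, averaged 128, 561 and 40.2 FPKM in the same order, and Fn1, fibronectin, 2231, 3375 and 1134 FPKM. Sox9 averaged 4.52, 6.46 and 12.7 FPKM, Thy1 890, 1009 and 1348 FPKM and Eng 58.97, 29.09 and 97.64 FPKM. These and Pdgfra, Nt5e and Prg4 averaged highest in FFSS, while Cd44, Itgb1, Alcam and Col2a1 averaged highest in P3. The sum is weighted towards the most abundant markers and does not give the direction of each. FFSS replicate 1 was the least like its group: over all genes tested its log2 values correlated at 0.915 and 0.947 with replicates 2 and 3, which correlated with each other at 0.969. It correlated with the P3 libraries at 0.936 to 0.945, higher than with FFSS replicate 2. For FFSS replicates 2 and 3 the correlations with P3 were 0.890 to 0.895 and 0.912 to 0.918. The share of fragments from mitochondrial genes ran from 2.12% to 2.32% for P3 libraries, from 2.31% to 2.56% for P9 libraries and from 2.96% to 3.75% for FFSS libraries. The summed level of 8 leukocyte markers was 1.31 to 2.12 FPKM for P3, 0.56 to 1.16 FPKM for P9 and 3.11 to 13.4 FPKM for FFSS, with the T cell marker Cd3e at 0 throughout. That of 7 endothelial markers was 1.32 to 1.83, 0.334 to 0.735 and 1.64 to 3.50 FPKM, with Cdh5, Tie1 and Emcn at 0. That of 10 skeletal muscle markers was 8.44 to 20.7, 39.4 to 46.7 and 8.93 to 39.0 FPKM, with Pax7 at 0. Those of 6 epithelial markers ran from 0.243 to 0.558 FPKM for P3, from 1.32 to 2.13 FPKM for P9 and from 0.207 to 1.14 FPKM for FFSS, with Krt5 at 0. For 5 erythroid markers they lay under 1 FPKM in every library. The part of these differences in the results below was not tested. In bulk RNA, a change in the number of cells of one type cannot be told apart from a change in RNA per cell.

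The core motif bound by the hypoxia-inducible factors was searched for as ACGTG and GCGTG, on both strands, in RefSeq promoters of the GRCr8 build running from 250 bases before the start of a gene to 50 bases after it. Of the 36 genes, 32 were found in that table, and Bnip3l, Ndrg1, Pgk1 and Slc2a3 were not. Either form was present in 20 of the 32 windows, or 62.5%, against 42.9% of all 27457 promoters of the same length. ACGTG was present in 16 of the 32 and in 19.7% of all promoters, and GCGTG in 14 of the 32 and in 31.1% of all. The windows of the 32 genes were also richer in CpG, with a median of 20.5 CpG each against 7 over all promoters, and CpG lies within both forms of the motif. A match describes letters and is not a measured binding site. The promoters printed here are those of the 4 genes with the smallest adjusted p among the rises under shear stress, followed by Gpi, which was called in both models; they were chosen after the values were seen. Capitals mark every match on either strand, and CACGTG, which reads the same on both strands, holds 2 overlapping matches.

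Pfkfb3: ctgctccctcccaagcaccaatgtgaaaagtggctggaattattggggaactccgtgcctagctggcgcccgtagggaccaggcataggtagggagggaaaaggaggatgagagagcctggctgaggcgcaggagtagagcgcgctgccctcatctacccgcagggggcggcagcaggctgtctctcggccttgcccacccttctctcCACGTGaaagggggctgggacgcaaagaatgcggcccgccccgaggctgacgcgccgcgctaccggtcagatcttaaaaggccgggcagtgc
Hif1a: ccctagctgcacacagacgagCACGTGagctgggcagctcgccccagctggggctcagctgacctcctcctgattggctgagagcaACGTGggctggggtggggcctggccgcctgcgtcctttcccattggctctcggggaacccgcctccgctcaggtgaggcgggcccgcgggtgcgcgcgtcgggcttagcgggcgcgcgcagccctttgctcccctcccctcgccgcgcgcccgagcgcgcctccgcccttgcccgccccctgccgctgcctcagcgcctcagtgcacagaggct
Ldha: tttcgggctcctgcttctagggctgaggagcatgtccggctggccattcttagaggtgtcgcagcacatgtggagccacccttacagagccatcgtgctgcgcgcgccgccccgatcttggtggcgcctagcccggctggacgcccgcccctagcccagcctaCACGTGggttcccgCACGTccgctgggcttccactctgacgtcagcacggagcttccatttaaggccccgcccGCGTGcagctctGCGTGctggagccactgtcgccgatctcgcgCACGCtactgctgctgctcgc
Mxi1: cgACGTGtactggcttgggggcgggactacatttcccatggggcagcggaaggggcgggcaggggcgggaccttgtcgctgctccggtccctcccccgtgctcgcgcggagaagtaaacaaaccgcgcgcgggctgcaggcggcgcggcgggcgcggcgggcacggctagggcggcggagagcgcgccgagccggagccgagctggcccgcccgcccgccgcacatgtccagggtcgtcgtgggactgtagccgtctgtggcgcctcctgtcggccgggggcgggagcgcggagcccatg
Gpi: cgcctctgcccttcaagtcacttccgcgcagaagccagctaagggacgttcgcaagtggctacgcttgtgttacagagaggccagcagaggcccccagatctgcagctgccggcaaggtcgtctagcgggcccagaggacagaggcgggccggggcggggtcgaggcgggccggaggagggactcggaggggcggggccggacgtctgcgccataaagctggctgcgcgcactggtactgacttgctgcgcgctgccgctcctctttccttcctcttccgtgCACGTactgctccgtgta

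These windows are chr17:71944683-71944982 (forward strand) for Pfkfb3, chr6:98359648-98359947 (forward) for Hif1a, chr1:106507842-106508141 (forward) for Ldha, chr1:262348392-262348691 (forward) for Mxi1 and chr1:95993212-95993511 (reverse) for Gpi. Ldha held 6 matches, the most of any of the 32, beginning at bases -87, -86, -73, -14, -2 and 30 counted from the start, and Pfkfb3 held 1 palindrome at base -42. Hif1a held a palindrome at -229 and a further match at -164, Mxi1 held 1 match at -248, and Gpi held 1 at base 33. Slc2a1 held 4 matches, 3 of them GCGTG. Of the 12 genes called higher under shear stress, 8 held a match, while the windows of Adm, Hk2, Aldoa and Pkm held none. That was near the share of all 32 windows given above, and a link of the motif to the rise was not tested. Of the genes called at passage 9, Gpi, Pfkm and Slc16a1 each held an ACGTG and Ndrg1 had no window, too few genes to set against the share of the 32.

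Under shear stress 12 of the 33 tested genes rose and 1 fell. They were Hif1a itself, the vasodilator peptide gene Adm, the MYC antagonist Mxi1, the glucose transporter Slc2a1, and 8 glycolytic genes, of which Pfkfb3 and Ldha had the smallest adjusted p. Pfkp, the platelet-type phosphofructokinase, fell. Of all 13059 genes tested, 11.4% were higher and 10.4% were lower in this comparison, against 12 and 1 of these 33. The median change of the 33 was 0.37 on the log2 scale against -0.01 over all genes, with 27 differences positive and 6 negative. At passage 9, 2 of the 33 rose and 2 fell, near the 5.39% of all genes that were higher and the 4.44% that were lower. In a fit of P3 and P9 alone, 9 were higher and 3 lower, with backgrounds of 10.5% and 8.52%. In a fit of P3 and FFSS alone, the shear stress calls of Adm, Hk2, Pkm and Pfkp were lost.

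**Figure D1:**
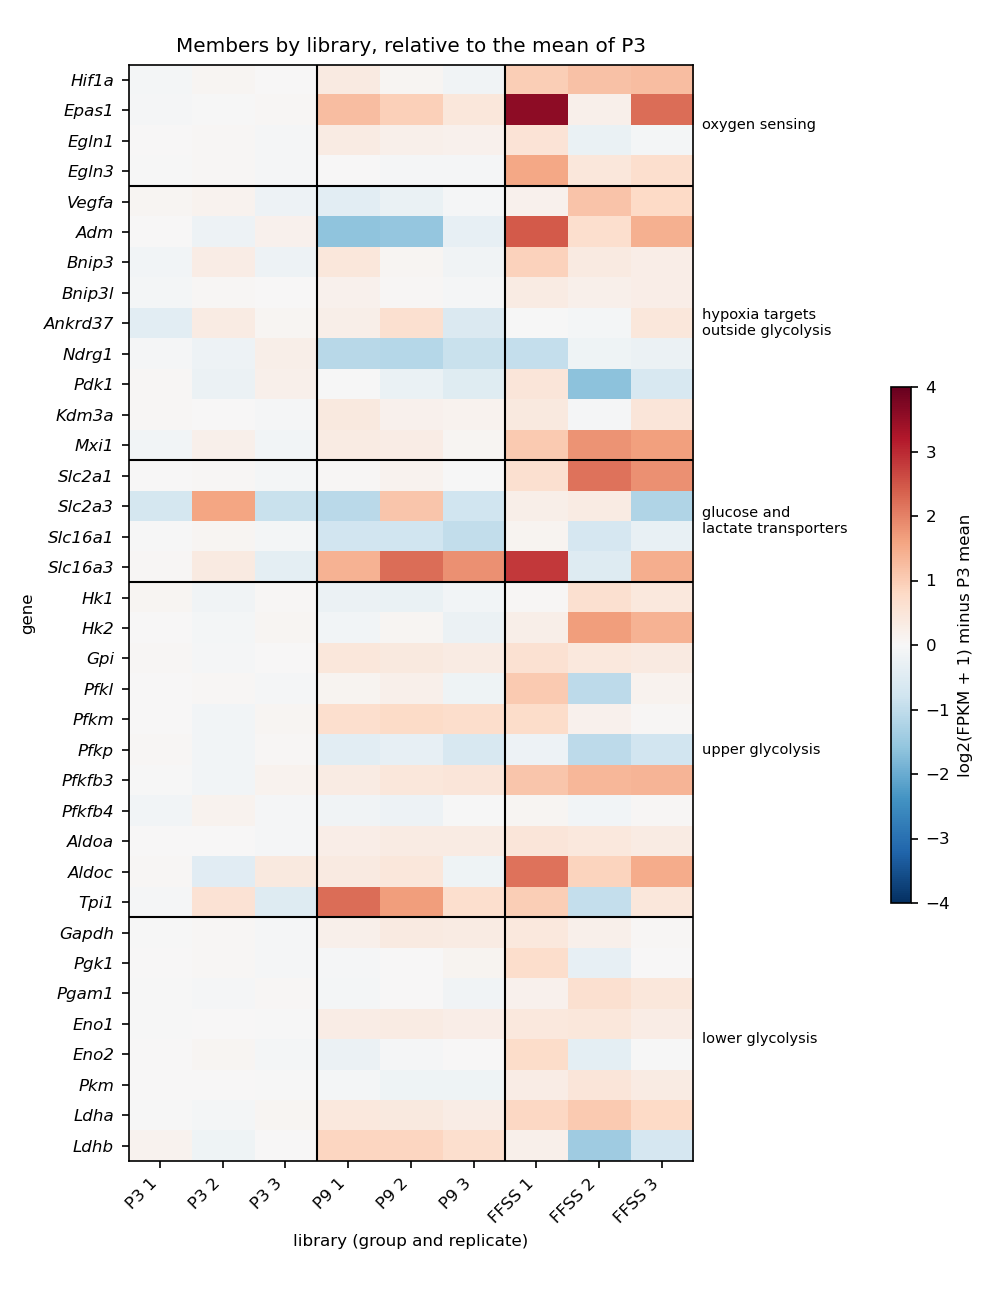
Level of each of the 36 genes (rows, grouped by role) in each of the 9 libraries (columns), as log2(FPKM + 1) minus the mean of the 3 P3 libraries, with red above and blue below that mean. Hif1a, Mxi1, Pfkfb3 and Ldha are red in all 3 FFSS libraries, while Pfkl and Slc16a3 are red in some FFSS libraries and blue in FFSS replicate 2.

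Hif1a (ENSRNOG00000008292; chromosome 6, 96810907 to 96856052, forward strand, Rnor_6.0) encodes the oxygen-regulated alpha subunit of HIF-1. It stood at 24.8, 27.3 and 26.1 FPKM in P3, at 34.0, 27.5 and 23.5 FPKM in P9 and at 53.1, 60.4 and 62.0 FPKM in FFSS. The 3 FFSS libraries lay above all the others, and P9 overlapped P3. The rise under shear stress was 1.13 ± 0.14 (log2, SE), 2.19-fold, with an adjusted p of 0.00165. P9 differed from P3 by 0.10 ± 0.14, with an adjusted p of 0.74. P9 differed from FFSS by -1.03 ± 0.14 (adjusted p = 0.000973).

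Epas1, which encodes the related HIF-2 alpha, read differently in each FFSS library. It was at 1.11, 1.16 and 1.27 FPKM in P3, at 4.07, 3.21 and 1.98 FPKM in P9 and at 24.7, 1.49 and 9.30 FPKM in FFSS. All P9 and all FFSS libraries lay above all P3 libraries, but the FFSS libraries spanned the P9 range. Its difference under shear stress was 2.0 ± 0.68 with an adjusted p of 0.0668, and it reached 0.00346 without FFSS replicate 2. At passage 9 it was 0.88 ± 0.68 with an adjusted p of 0.503. Epas1 made up 4.32% ± 0.30 (SD, n = 3) of the summed Hif1a and Epas1 level in P3 and 9.65% ± 1.62 in P9, and 31.8%, 2.40% and 13% of it in the FFSS libraries.

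Egln1, the main prolyl hydroxylase acting on HIF-1 alpha, was not called in any of the 3 comparisons. It was at 30.9 to 32.9 FPKM in P3, 36 to 40.1 FPKM in P9 and 26.5 to 47.3 FPKM in FFSS, and its difference under shear stress was 0.07 ± 0.19 (adjusted p = 0.808).

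Among the 9 hypoxia targets outside glycolysis, 2 rose under shear stress and 1 fell at passage 9, against 11.4% and 4.44% of all genes. In the opposite directions limma called 0 of the 9 in each comparison, also at an unadjusted p under 0.05 and with voom. Mxi1, a MYC antagonist, was at 4.47, 5.71 and 4.42 FPKM in P3, at 6.30, 6.12 and 5.21 FPKM in P9 and at 11.2, 19.2 and 17 FPKM in FFSS. The FFSS libraries stood clear of the rest. Mxi1 rose by 1.49 ± 0.20, 2.82-fold, with an adjusted p of 0.00208.

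Adm, which encodes the vasodilator peptide adrenomedullin, lay below P3 at passage 9 and above it under shear stress. It was at 17.1, 14.6 and 19.4 FPKM in P3, at 4.86, 5.15 and 13.2 FPKM in P9 and at 98.0, 27.8 and 46.7 FPKM in FFSS. The 3 groups did not overlap, with P9 lowest and FFSS highest. The rise under shear stress was 1.52 ± 0.46, 2.87-fold, with an adjusted p of 0.0443, and the difference of -1.16 ± 0.46 at passage 9 was not called (adjusted p = 0.164). P9 and FFSS themselves differed by -2.68 ± 0.46 with an adjusted p of 0.00295, the largest difference in size of any of the 33 genes in the 3 comparisons. The shear stress call was lost without any P3 library, without P9 replicate 1 or 2, and without FFSS replicate 1 or 3 (adjusted p of 0.0518 to 0.128). It was also lost with a pseudocount of 0.1 (0.0503), without a filter (0.0857), with scaling by library totals (0.0532) and with the 2 groups alone (0.0576).

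Vegfa, the main growth factor for blood vessels, was at 56.1, 59.0 and 46.1 FPKM in P3, at 40.0, 44.6 and 52.0 FPKM in P9 and at 60.5, 120 and 94.2 FPKM in FFSS. All FFSS libraries were above all P3 libraries, replicate 1 only just. Its difference of 0.71 ± 0.23 missed the threshold (adjusted p = 0.0572) and passed it without FFSS replicate 1 (0.00255), with scaling by library totals (0.0472) and with voom (0.0496). P9 was below FFSS by -0.95 ± 0.23 (adjusted p = 0.0148), a call lost without P9 replicate 1 or FFSS replicate 3 (0.0533 to 0.0551).

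Ndrg1, a stress-responsive gene that marks hypoxic cells, was the hypoxia target that fell at passage 9. It was at 17.5, 15.7 and 21.4 FPKM in P3 and at 7.92, 7.65 and 9.38 FPKM in P9, with no overlap. FFSS libraries were at 8.82, 15.9 and 15.3 FPKM, on both sides of the lowest P3 library. The fall at passage 9 was -1.04 ± 0.22, to 0.488 of the P3 level, with an adjusted p of 0.0166, and was lost on leaving out P3 replicate 1, P3 replicate 3, P9 replicate 1 or P9 replicate 2 (0.0617 to 0.0787). Under shear stress its difference was -0.45 ± 0.22 (adjusted p = 0.158).

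Bnip3 and Bnip3l, receptors that direct mitochondria to mitophagy, were not called in any comparison. Bnip3 was at 18.8 to 27.3 FPKM in P3, 19.8 to 30.3 FPKM in P9 and 26.2 to 42.3 FPKM in FFSS, a difference under shear stress of 0.51 ± 0.23 (adjusted p = 0.138). Bnip3l was at 18.7 to 20.2 FPKM in P3 and 22.6 to 25.1 FPKM in FFSS, which did not overlap, a difference of 0.27 ± 0.10 (adjusted p = 0.0875). Pdk1, the kinase that restrains pyruvate dehydrogenase, was at 8.36 to 11.7 FPKM in P3 and at 14.5, 2.52 and 6.05 FPKM in FFSS. FFSS replicate 1 was thus the highest and replicate 2 the lowest of the 9 libraries for Pdk1, and its difference was -0.61 ± 0.44 (adjusted p = 0.351). Kdm3a, a histone demethylase, and Ankrd37, a small ankyrin repeat protein, differed by 0.28 ± 0.16 and 0.12 ± 0.33 under shear stress and were not called (adjusted p of 0.222 and 0.821).

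Of the carriers, Slc2a1, the basal glucose transporter GLUT1, rose under shear stress. It was at 20.9, 21.1 and 19.4 FPKM in P3, at 20.9, 22.6 and 20.4 FPKM in P9 and at 32.2, 94.9 and 75.4 FPKM in FFSS. All FFSS libraries were above all others, with replicate 1 the lowest of the 3. The rise was 1.54 ± 0.32, 2.91-fold, with an adjusted p of 0.0122, and stood at 0.0502 without FFSS replicate 3. At passage 9 the difference was 0.06 ± 0.32 (adjusted p = 0.947). Slc2a3, the high-affinity GLUT3, was above 4 FPKM in P3 replicate 2 and P9 replicate 2 alone, at 9.05 and 6.24 FPKM, and between 0.454 and 3.20 FPKM in the other 7 libraries.

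Slc16a1, the monocarboxylate carrier MCT1, fell at passage 9. It was at 36.5, 38.7 and 34.9 FPKM in P3, at 21.1, 20.6 and 18.1 FPKM in P9 and at 39.5, 22.4 and 29.9 FPKM in FFSS. Every P9 library was below every library of the other groups. The fall was -0.85 ± 0.18, to 0.555 of the P3 level, with an adjusted p of 0.0189, and was lost when any one P3 or P9 library was left out (0.0528 to 0.0733). P9 was also below FFSS by -0.56 ± 0.18 (adjusted p = 0.0434), which was lost without any single library other than FFSS replicate 2 (0.0579 to 0.119), without a filter (0.0668), with scaling by library totals (0.0735) and with the 2 groups alone (0.107).

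Slc16a3, the lactate exporter MCT4, is a well-known HIF-1 target. It was at 3.24, 4.29 and 2.12 FPKM in P3, at 9.77, 18.4 and 13.5 FPKM in P9 and at 28.1, 1.89 and 10.2 FPKM in FFSS. All P9 libraries were above all P3 libraries, while FFSS held both the highest and the lowest of the 9. Its difference at passage 9 was 1.81 ± 0.69 and was not called in the fit over 9 libraries (adjusted p = 0.15), where the spread is shared with FFSS. In a fit of P3 and P9 alone it was called (0.00489). Under shear stress its difference was 1.25 ± 0.69 (adjusted p = 0.218), called without FFSS replicate 2 (0.0146). Slc16a3 made up 7.95% ± 2.15 (SD, n = 3) of the summed level of both carriers in P3 and 40.5% ± 8.0 in P9, and 41.6%, 7.76% and 25.5% in the FFSS libraries.

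**Figure D2:**
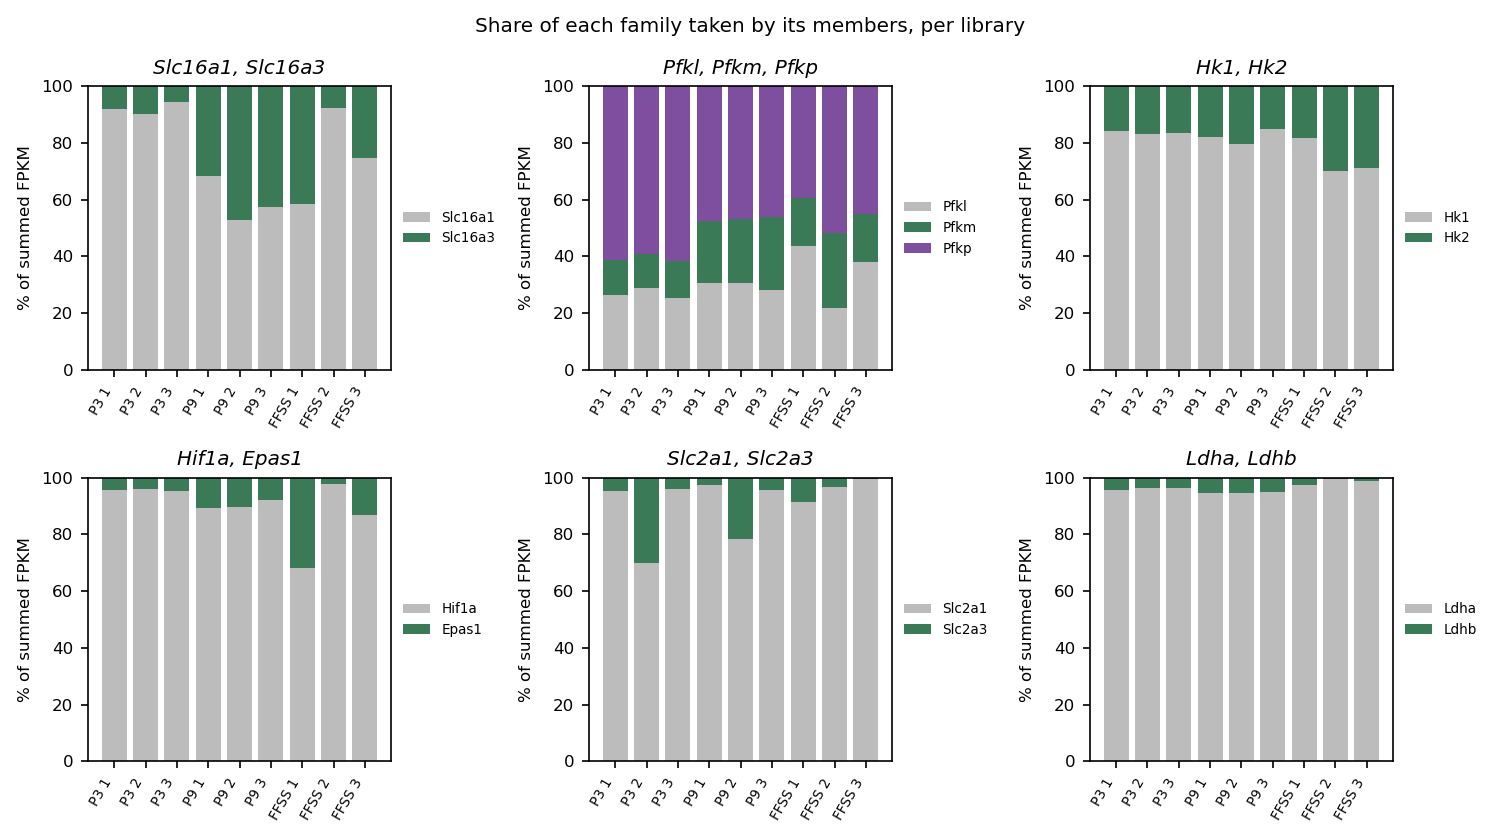
Share of the summed FPKM of each gene family (vertical axis, percent) taken by each of its genes, as stacked bars for each of the 9 libraries. Slc16a3 takes 31.7% to 47.2% of its pair in P9 against 5.71% to 9.99% in P3, and Pfkp takes a smaller part of the phosphofructokinases in all P9 and FFSS libraries than in any P3 library.

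Of the 10 upper glycolysis genes tested, 5 rose and 1 fell under shear stress, and 2 rose at passage 9. Of all genes, 11.4% were higher and 10.4% lower under shear stress, and 5.39% were higher at passage 9. Pfkfb3 makes fructose 2,6-bisphosphate, the strongest activator of phosphofructokinase. Pfkfb3 (ENSRNOG00000018911; chromosome 17, 70684134 to 70713726, forward strand, Rnor_6.0) was at 4.29, 3.95 and 4.96 FPKM in P3, at 5.69, 6.34 and 6.49 FPKM in P9 and at 10.5, 12.7 and 12.7 FPKM in FFSS. The 3 groups did not overlap, with P9 between P3 and FFSS. The rise under shear stress was 1.26 ± 0.13, 2.40-fold, with an adjusted p of 0.000747, the smallest of the 33 in that comparison. P9 differed from P3 by 0.41 ± 0.13 (adjusted p = 0.0841) and from FFSS by -0.85 ± 0.13 (adjusted p = 0.00165).

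Hexokinases trap glucose in the cell, and Hk2 is the inducible form. Hk2 was at 9.52, 8.72 and 9.84 FPKM in P3, at 8.68, 10 and 7.78 FPKM in P9 and at 11.1, 31.7 and 26.1 FPKM in FFSS. Replicate 1 of FFSS lay just above P3, and both others far above. Hk2 rose by 1.09 ± 0.32, 2.13-fold (adjusted p = 0.0387), and the call was lost without any single library other than FFSS replicate 1 (0.0538 to 0.128), without a filter (0.0741) and with the 2 groups alone (0.0862). Hk1, the constitutive form, was at 43.0 to 50.3 FPKM in P3, 39.1 to 43.5 FPKM in P9 and 49.4 to 73.8 FPKM in FFSS. It was not called against P3 (0.37 ± 0.15, adjusted p = 0.107) and was lower in P9 than in FFSS (-0.58 ± 0.15, adjusted p = 0.0179), a call lost without P9 replicate 2 or FFSS replicate 3 (0.0622 to 0.0636) and with the 2 groups alone (0.0564).

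Gpi, which turns glucose 6-phosphate into fructose 6-phosphate, was the one gene of the 33 called higher in both models in the fit over 9 libraries. It was at 93.5, 87.3 and 90.8 FPKM in P3, at 124, 118 and 115 FPKM in P9 and at 138, 122 and 117 FPKM in FFSS. P9 and FFSS overlapped each other and both lay above P3. The rise was 0.39 ± 0.10 at passage 9 (1.31-fold, adjusted p = 0.0411) and 0.47 ± 0.10 under shear stress (1.38-fold, adjusted p = 0.0131). Both comparisons share the P3 libraries. Of all genes, 5.39% were higher at passage 9 and 11.4% under shear stress, and the share called in both is not given here. In the fit of P3 and P9 alone, Pfkfb3, Aldoa, Eno1 and Ldha, which rose under shear stress in the fit over 9 libraries, were also called higher at passage 9. In that fit of 2 groups, 10.5% of all genes were higher and 8.52% lower. Pfkp was then called lower at passage 9 too, but its shear stress call over 9 libraries was lost with P3 and FFSS alone. The passage 9 call of Gpi was lost without any P3 or P9 library or FFSS replicate 3 (0.061 to 0.147) and with a replicate block (0.0761). Its shear stress call was lost without P3 replicate 1 or 2 (0.0513 to 0.0597).

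The 3 phosphofructokinases, which catalyse the committed step, did not move together. Pfkm, the muscle type, was at 7.17, 6.44 and 7.57 FPKM in P3, at 11.7, 12.8 and 12.2 FPKM in P9 and at 12.5, 8.11 and 7.36 FPKM in FFSS. It rose at passage 9 by 0.72 ± 0.18, 1.64-fold (adjusted p = 0.0344), with no overlap of P9 and P3. The call was lost without any P3 or P9 library (0.0859 to 0.13), without a filter (0.0596) and with a replicate block (0.0642). The summed skeletal muscle markers were also higher in every P9 library than in any P3 library, as given above. Only 1 of those 10 markers was at 1 FPKM or more in every library, and the FFSS sums ran from 8.93 to 39.0 FPKM. A link between these markers and Pfkm was not tested.

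Pfkp was at 35.4, 31.6 and 35.4 FPKM in P3, at 25.3, 26.6 and 21.6 FPKM in P9 and at 29.4, 16 and 19.8 FPKM in FFSS. All P9 and FFSS libraries were below all P3 libraries. The fall under shear stress was -0.67 ± 0.20, to 0.63 of P3, with an adjusted p of 0.0414, and it was lost without any library other than FFSS replicate 1 (0.0538 to 0.124), without a filter (0.0701), with scaling by library totals (0.0531) and with the 2 groups alone (0.0815). At passage 9 the difference was -0.46 ± 0.20 (adjusted p = 0.199). Pfkl, the liver type, was at 14.5 to 15.4 FPKM in P3 and 13.2 to 17.5 FPKM in P9, and at 32.4, 6.78 and 16.7 FPKM in FFSS, where it was both the highest and the lowest of the 9. Pfkp made up 60.6% ± 1.32 (SD, n = 3) of the summed level of the 3 enzymes in P3, 46.8% ± 0.70 in P9 and 45.5% ± 6.11 in FFSS, and Pfkm 12.5% ± 0.58, 23.5% ± 2.12 and 19.9% ± 5.46.

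Aldolases split fructose 1,6-bisphosphate. Aldoa, the main form, was at 412, 409 and 393 FPKM in P3, at 483, 504 and 508 FPKM in P9 and at 568, 546 and 513 FPKM in FFSS. The groups did not overlap, and FFSS was highest. Aldoa rose by 0.42 ± 0.10 under shear stress (1.34-fold, adjusted p = 0.0182), a call lost without any one P3 library (0.066 to 0.0756). Aldoc, the brain form, was at 2.98, 1.81 and 4.02 FPKM in P3, at 3.92, 4.21 and 2.43 FPKM in P9 and at 16.3, 6.07 and 9.71 FPKM in FFSS. It rose by 1.51 ± 0.34, 2.86-fold (adjusted p = 0.0157), with every FFSS library above all others, and the call was lost without P3 replicate 1 or 2 or FFSS replicate 3 (0.0504 to 0.0615). P9 was below FFSS by -1.30 ± 0.34 (adjusted p = 0.0196), which was lost without P9 replicate 3 or FFSS replicate 3 (0.0564 to 0.0657).

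Tpi1, triosephosphate isomerase, could not be read from its own row alone. Its row held 0.19 to 9.95 FPKM, far below its neighbours in the pathway, while LOC100911515, annotated as a like gene, held 10.6 to 40.2 FPKM. The Tpi1 row took 1.39% to 41.5% of their sum, so its values are uncertain. Its differences of 1.53 ± 0.55 at passage 9 and 0.16 ± 0.55 under shear stress were not called (adjusted p of 0.13 and 0.859), and with the 2 rows summed they became -0.02 and -0.34.

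**Figure D3:**
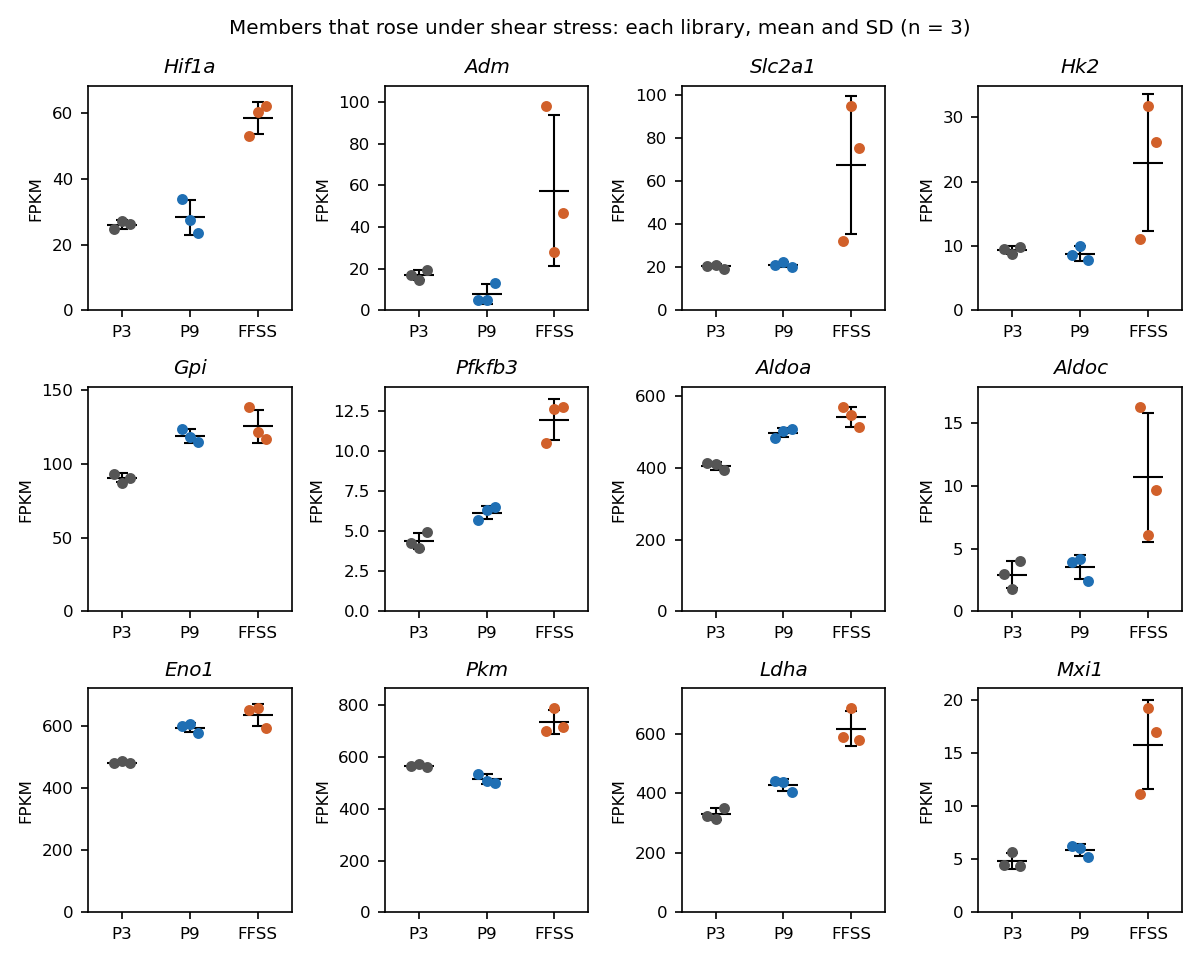
FPKM of the 12 genes that rose under shear stress, as 1 point per library with the mean (wide bar) and SD (whiskers, n = 3) of each group on linear axes from 0. The FFSS points lie above all P3 points in each of the 12 panels, which follows largely from choosing genes called higher and is not a further result. For Slc2a1 and Hk2 the lowest FFSS point is replicate 1.

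Of the 7 lower glycolysis genes tested, 3 rose under shear stress, against 11.4% of all genes. At passage 9 limma and voom called 0 of the 7, while limma called 5.39% of all genes higher and 4.44% lower. At an unadjusted p under 0.05 in limma, 4 of the 7 were higher and 0 lower. The share of all genes at that unadjusted threshold is not given here, so the 4 have no background to be read against. Ldha, which turns pyruvate into lactate, was at 325, 315 and 352 FPKM in P3, at 442, 437 and 406 FPKM in P9 and at 588, 686 and 579 FPKM in FFSS. The groups formed 3 separate steps, P3 lowest and FFSS highest. Ldha (ENSRNOG00000013009; chromosome 1, 102900286 to 102909707, forward strand, Rnor_6.0) rose by 0.90 ± 0.11 under shear stress, 1.86-fold (adjusted p = 0.00174). The difference at passage 9 was 0.37 ± 0.11, 1.29-fold, and was not called over 9 libraries (adjusted p = 0.0758) but was in the fit of P3 and P9 alone (0.0311) and with scaling by library totals (0.0388). P9 lay below FFSS by -0.52 ± 0.11 (adjusted p = 0.00842).

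Ldhb encodes the form that favours pyruvate. It was at 15.0, 11.8 and 13.7 FPKM in P3, at 25.4, 25.3 and 21.9 FPKM in P9 and at 15.7, 4.41 and 8.14 FPKM in FFSS. P9 lay above every other library, and FFSS replicates 2 and 3 below every other. P9 exceeded FFSS by 1.42 ± 0.34, 2.68-fold (adjusted p = 0.0126), the one gene of the 33 called higher in P9 than in FFSS in the fit over 9 libraries. Neither difference from P3 was called over 9 libraries (0.80 ± 0.34, adjusted p = 0.191, and -0.62 ± 0.34, adjusted p = 0.208). Ldhb was 3.92% ± 0.42 (SD, n = 3) of the summed dehydrogenase level in P3, 5.34% ± 0.19 in P9 and 1.54% ± 0.99 in FFSS.

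Eno1, the common enolase, was at 481, 487 and 482 FPKM in P3, at 600, 607 and 579 FPKM in P9 and at 654, 658 and 596 FPKM in FFSS. P9 and FFSS overlapped each other above a tight P3. Eno1 rose by 0.39 ± 0.10 under shear stress (1.31-fold, adjusted p = 0.0237), a call lost without any P3 library or FFSS replicate 2 (0.0544 to 0.0991), and without a filter (0.0585). At passage 9 its difference was 0.30 ± 0.10 (adjusted p = 0.1).

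Pkm, pyruvate kinase, was at 568, 572 and 561 FPKM in P3, at 537, 508 and 501 FPKM in P9 and at 701, 789 and 717 FPKM in FFSS. Here P9 lay below P3 and FFSS above it, with no overlap. Pkm rose by 0.37 ± 0.10 under shear stress (1.29-fold, adjusted p = 0.0323), a call lost without any P3 library, P9 replicate 2, or FFSS replicate 2 or 3 (0.0532 to 0.117), and also without a filter (0.0784) and with the 2 groups alone (0.0505). Its difference of -0.14 ± 0.10 at passage 9 was not called (adjusted p = 0.477), while P9 was below FFSS by -0.51 ± 0.10 (adjusted p = 0.00616).

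Pgam1, phosphoglycerate mutase, was at 194 to 208 FPKM in P3, 180 to 203 FPKM in P9 and at 226, 315 and 275 FPKM in FFSS. Its difference of 0.42 ± 0.13 under shear stress was not called (adjusted p = 0.05, just over the threshold before rounding), and it was called without FFSS replicate 1 (0.00487), with a filter of 5 FPKM (0.047), with scaling by library totals (0.0362) and with voom (0.0468). P9 was below FFSS by -0.49 ± 0.13 (adjusted p = 0.0219), a call lost without P9 replicate 3 or FFSS replicate 2 or 3 (0.0554 to 0.0707) and with the 2 groups alone (0.0783). Gapdh was at 869, 907 and 854 FPKM in P3, at 1003, 1130 and 1111 FPKM in P9 and at 1176, 1003 and 905 FPKM in FFSS, and was not called (0.30 ± 0.13, adjusted p = 0.207, at passage 9). Pgk1, a gene often used as a HIF-1 readout, was at 194 to 208 FPKM in P3, 196 to 217 FPKM in P9 and at 330, 159 and 205 FPKM in FFSS, with a difference of 0.13 ± 0.23 under shear stress (adjusted p = 0.709).

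Several of these genes have rows of similarly annotated copies in the table, and reads may be split between such rows, so that values of Gapdh, Tpi1 and Eno2 above all are uncertain. How the authors' counting treated such reads is not given in the sources used here. The Gapdh row took 77.9% to 88.5% of its sum with the copy LOC108351137, and Eno2 took 9.33% to 67.8% of its sum. The Eno1, Pkm and Ldha rows took 93.0% to 96.7% of theirs. With copies summed, no call of a gene of these 33 changed.

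Added over the 19 glycolysis genes, the level was 3292 ± 15.1 FPKM (SD, n = 3) in P3, 3777 ± 70.9 FPKM in P9 and 4359 ± 254 FPKM in FFSS. Single libraries were at 3276 to 3307, 3724 to 3858 and 4074 to 4565 FPKM, so that the groups did not overlap. Between 80.6% and 82.9% of this sum came from 5 genes, Gapdh, Pkm, Eno1, Aldoa and Ldha. At passage 9, Gapdh, Eno1, Aldoa and Ldha were higher in each library than in any P3 library, and Pkm was lower. For Gapdh the sum with its copy no longer separated the groups: it was 1108, 1136 and 1097 FPKM in P3 and 1134, 1421 and 1413 FPKM in P9.

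**Figure D4:**
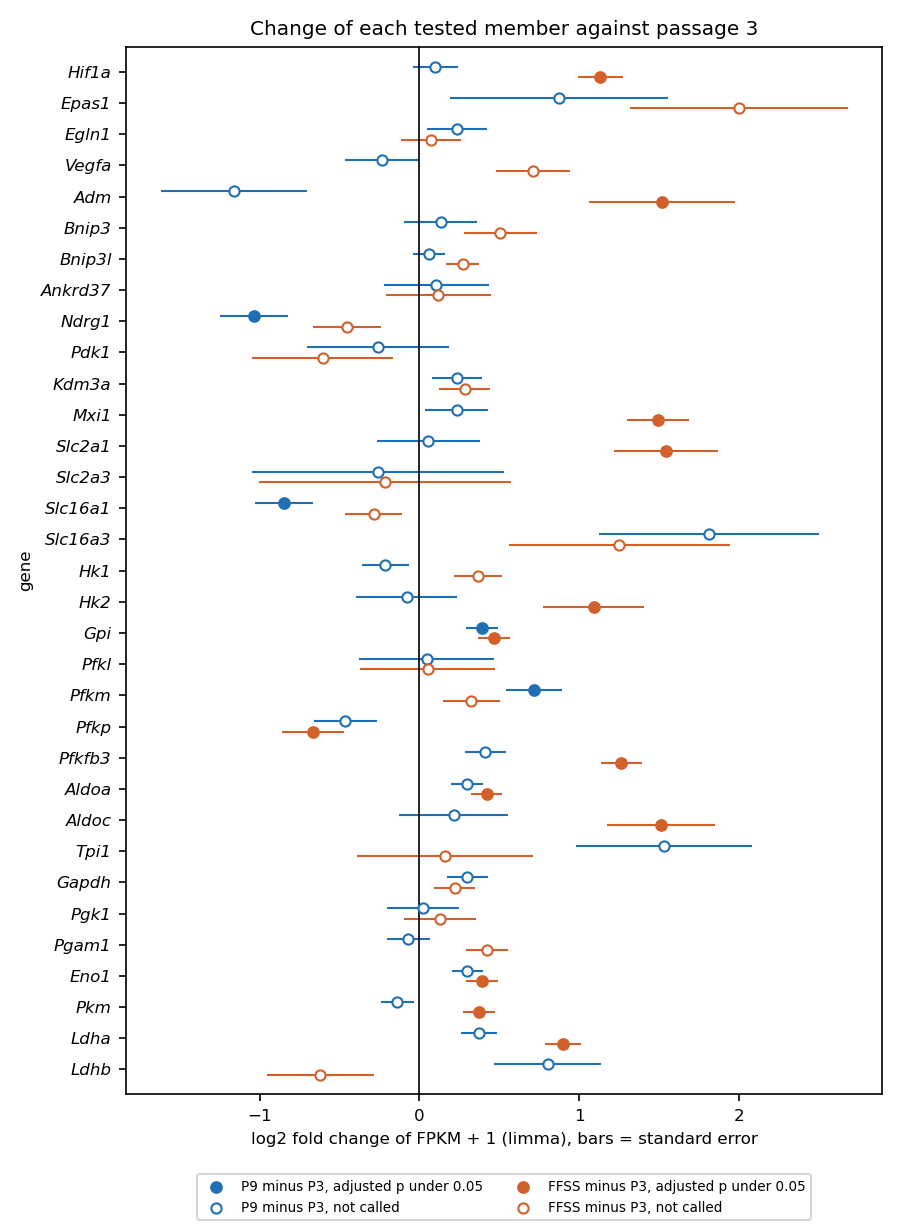
Difference from P3 of each of the 33 tested genes on the log2(FPKM + 1) scale (horizontal axis), with its standard error as a bar, for P9 in blue and FFSS in orange. Filled points passed an adjusted p of 0.05 in limma, and 12 of the 13 filled orange points lie to the right of 0, against 2 of the 4 filled blue points.

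The FFSS libraries differed most among themselves. Over the 33 genes the median SD of log2 values within a group was 0.0836 in P3, 0.126 in P9 and 0.394 in FFSS, and the SD passed 0.5 in 2, 4 and 12 genes. Over the 36 genes, FFSS replicate 1 was above both other FFSS libraries in 21 and below both in 10, and FFSS replicate 2 was above both others in 11 and below both in 18. Replicate 1 was the highest or lowest of the 9 libraries in 16 genes and replicate 2 in 18. Shares of all genes for these counts of spread and position are not given here. Without replicate 1, 14 of the 33 genes were higher and 4 lower under shear stress, while the background rose to 19.3% higher and 19.7% lower. Vegfa, Hk1 and Pgam1 were then called higher (adjusted p of 0.00255, 0.0083 and 0.00487), and Pdk1, Ldhb and Slc16a1 were called lower (0.0141, 0.00618 and 0.0239), while Adm was lost. Hif1a, Mxi1, Pfkfb3 and Ldha kept their calls whichever library was left out and in the other alternatives run, except that Ldha did not reach a minimum log2 change of 1.

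Compared with each other, P9 and FFSS differed in 14 of the 33 genes, 1 higher and 13 lower in P9. The backgrounds in this comparison were 16.1% higher and 15.3% lower. The 13 were Hif1a, Vegfa, Adm, Mxi1, Slc2a1, Slc16a1, Hk1, Hk2, Pfkfb3, Aldoc, Pgam1, Pkm and Ldha. Since both models were set against the same P3 libraries, this direct difference is also the test of whether their effects differ. Slc2a1 was lower in P9 by -1.49 ± 0.32 (adjusted p = 0.00897), Mxi1 by -1.26 ± 0.20 (adjusted p = 0.00185) and Hk2 by -1.17 ± 0.32 (adjusted p = 0.0221), the last lost without P9 replicate 1 or 3 or FFSS replicate 2 or 3 (0.0598 to 0.0806) and with the 2 groups alone (0.0625). Without FFSS replicate 1 the counts were 6 higher and 13 lower in P9, with backgrounds of 23.7% and 22.0%.

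The passage 9 comparison depended on whether the FFSS libraries shared the estimate of the spread. In a fit of P3 and P9 alone, 9 of the 33 genes were higher and 3 lower, with backgrounds of 10.5% higher and 8.52% lower. The genes then added were Epas1 (adjusted p = 0.0268), Pfkfb3 (0.0422), Aldoa (0.0475), Eno1 (0.0464), Ldha (0.0311), Ldhb (0.00417) and Slc16a3 (0.00489), all higher, and Pfkp (0.0233), lower. Hif1a, Vegfa, Slc2a1 and Hk2 were called in neither fit of passage 9. The shear stress comparison depended on the shared spread too: with P3 and FFSS alone, the calls of Adm, Hk2, Pkm and Pfkp were lost. The shared estimate was taken over groups whose median SD was 0.0836 in P3, 0.126 in P9 and 0.394 in FFSS.

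Other genes of the pathway were taken from 4 lists. Of 33 other hypoxia targets tested, 10 were called higher and 3 lower under shear stress, against 11.4% and 10.4% of all genes. At passage 9, 3 were called higher and 6 lower, against 5.39% and 4.44% of all genes. Car9, a carbonic anhydrase, was at 2.72, 4.25 and 2.13 FPKM in P3, at 53.0, 51.4 and 43.3 FPKM in P9 and at 10.8, 15.5 and 14 FPKM in FFSS. It rose by 3.67 ± 0.21 at passage 9 (adjusted p = 6.03e-05) and by 1.86 ± 0.21 under shear stress (adjusted p = 0.00105). Plin2, which coats lipid droplets, rose in both, by 0.87 ± 0.15 (adjusted p = 0.00643) and 1.42 ± 0.15 (adjusted p = 0.000787). The transcriptional repressor gene Bhlhe40 rose under shear stress by 2.28 ± 0.25 (adjusted p = 0.00107). Falling at passage 9 were Stc2, a secreted stanniocalcin (-2.65 ± 0.22, adjusted p = 0.000276), Lox, which cross-links collagen (-1.52 ± 0.13, adjusted p = 0.000313), and Hmox1, heme oxygenase (-2.65 ± 0.43, adjusted p = 0.00537). Stc2 was at 14.4 to 14.8 FPKM in P3, 0.927 to 2.66 FPKM in P9 and 7.22 to 8.17 FPKM in FFSS. It fell under shear stress too, by -0.87 ± 0.22 (adjusted p = 0.0229), a call lost without any P3 library or FFSS replicate 2 or 3 (0.0553 to 0.0741) and with a pseudocount of 0.1 (0.0637).

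Of 10 other oxygen-sensing genes tested, 2 were called higher and 2 lower under shear stress, against 11.4% and 10.4% of all genes. At passage 9 limma and voom called 0 of the 10, and 1 was higher at an unadjusted p under 0.05 in limma, a threshold for which no share of all genes is given here. Hif1an, the asparaginyl hydroxylase that blocks HIF from its coactivators, was at 11.3, 11.1 and 12.7 FPKM in P3 and at 7.30, 6.11 and 8.50 FPKM in FFSS. It fell by -0.62 ± 0.13 (adjusted p = 0.0134), a call lost without P3 replicate 1 or 3 (0.0503 to 0.0576). Siah1, a ubiquitin ligase that acts on prolyl hydroxylases, rose by 0.66 ± 0.10 (adjusted p = 0.00433).

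Of 17 other glycolysis and glucose entry genes tested, 2 were called higher and 4 lower under shear stress, and 2 lower at passage 9. Of all genes 11.4% were higher and 10.4% lower under shear stress and 4.44% were lower at passage 9, so the share higher was near that of all genes. At passage 9 limma and voom called 0 higher, also 0 at an unadjusted p under 0.05 in limma. Bsg, the chaperone of the monocarboxylate carriers, rose under shear stress by 0.61 ± 0.13 (adjusted p = 0.0129; 0.0565 to 0.0578 without P3 replicate 1 or 3). Slc2a10, a further glucose transporter, fell by -0.70 ± 0.14 (adjusted p = 0.0093). Bpgm, which makes 2,3-bisphosphoglycerate, was at 17.5 to 18.8 FPKM in P3, 20.5 to 22 FPKM in P9 and at 31.1, 301 and 186 FPKM in FFSS. It rose by 2.67 ± 0.66 (adjusted p = 0.0227), with FFSS replicate 1 far below both others, and the call was lost without any P3 library or FFSS replicate 2 or 3 (0.0527 to 0.0825), without a filter (0.0502) and with the 2 groups alone (0.0646).

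Of 14 genes of pyruvate entry into mitochondria, 3 were called higher under shear stress, against 11.4% of all genes. At passage 9, 1 was called higher and 1 lower, near the 5.39% and 4.44% of all genes. Under shear stress limma and voom called 0 lower, against 2 at an unadjusted p under 0.05 in limma, for which no share of all genes is given here. Pdp1, the phosphatase that activates pyruvate dehydrogenase, rose under shear stress by 0.91 ± 0.18 (adjusted p = 0.0104). Pdk4, a kinase that inactivates it, rose at passage 9 by 1.12 ± 0.23 (adjusted p = 0.0156; 0.0516 to 0.0643 without P3 replicate 1 or P9 replicate 2 or 3).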

How the data were processed

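RNA was sequenced from 9 libraries, 3 in each group, as grouped by their titles. HISAT2 2.0.5, featureCounts 1.5.0-p3 and the Rnor_6.0 build are named in the submitters' processing notes; settings, strandedness and the treatment of multiply mapped reads are not given in the sources used here. The authors deposited 1 table of FPKM values. The unit was read from the values: each value times the gene length was a whole multiple (within 0.01) of 1 step per library for 100% of values. That step gave the fragments per library, and it followed median-of-ratios size factors, so a scaling between libraries is already in the deposited values.

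The main test was limma 3.58.1 (R 4.3.3) with a trend, two-sided, on log2(FPKM + 1) of genes that reached 1 FPKM in 3 libraries or more, over all 9 libraries with 6 residual degrees of freedom and no covariate. P-values were Benjamini-Hochberg adjusted over all genes tested. SEs are limma's. Folds are of FPKM + 1. The procedure was tested on simulated data with changes placed in P9 alone and the same dispersion for every library. That test does not cover a spread that differs between groups, as it did here. Alternatives were a pseudocount of 0.1, no filter, a filter of 5 FPKM, scaling by library totals, the 2 groups alone, a block on replicate number, voom on the recovered fragments, a minimum log2 change of 1, leaving out each library and, chosen after seeing the data, summing rows of similar copies. Count models were not used, since the deposited unit is FPKM.

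The genes, lists and tests were chosen with earlier results of these data known. All 36 genes could be named, and from each list up to 4 called genes per comparison with the smallest adjusted p. Promoter sequences are RefSeq's, build GRCr8, which is not the build of the files. Protein sequences were not used here. A list of a neighbouring pathway is not reported here. Figures were drawn with matplotlib 3.10.9.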

Additional observations from a re-analysis of the deposited data

How the results depend on the processing

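Most values kept their direction and their side of the threshold: of 1671 recomputed log2 differences of the 33 genes, 1479 did so, 111 lost a call, 38 gained one and 43 turned sign, and none of those 43 was called either way. In the main fit 29 of the 33 were not called at passage 9, 20 under shear stress and 19 in P9 against FFSS. Those could not lose a call, so the calls themselves were less stable than this total. With a minimum log2 change of 1, the genes higher and lower numbered 0 and 1 at passage 9 and 7 and 0 under shear stress, and 6 were lower in P9 than in FFSS. Without a filter 1 gene was higher at passage 9, and with P3 and P9 alone 9 were. No gene was lower under shear stress without a filter, with scaling by library totals, or with the 2 groups alone. The replicate numbers did not pair the libraries (correlations of same-numbered deviations between -0.041 and 0.033); with a replicate block 0 genes were higher at passage 9 and 0 lower under shear stress, against 2 and 1 without it. Leaving out 1 library at a time gave 0 to 7 genes higher and 0 to 3 lower at passage 9, 5 to 14 higher and 0 to 4 lower under shear stress, and 1 to 6 higher and 7 to 13 lower in P9 against FFSS. Shares of all genes are given above only for the main fit, the fit of P3 and P9 alone and the fit without FFSS replicate 1. The counts under other settings have no such background, so they do not show how these genes fared beside all genes. Scaling by library totals moved the median of all genes by under the 0.1 limit.

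Signs turned for small differences. For P9 against FFSS, Pfkl became 0.00844 (pseudocount of 0.1), 0.0387 (library totals) and 0.00517 (voom), and Ankrd37 0.0153 (library totals). Tpi1 became -0.0221 at passage 9 and -0.34 under shear stress with copies summed, and -0.0427 under shear stress with voom. With single libraries left out, log2 differences at passage 9 ran from -0.0363 to 0.22 for Hif1a, -0.0307 to 0.29 for Bnip3, -0.17 to 0.44 for Ankrd37, -0.94 to 0.53 for Slc2a3, -0.0353 to 0.16 for Pfkl, -0.01003 to 0.41 for Aldoc and -0.0197 to 0.0526 for Pgk1. Under shear stress they ran from -0.17 to 0.24 for Egln1, -0.0865 to 0.29 for Ankrd37, -0.66 to 0.58 for Slc2a3, -0.45 to 0.60 for Pfkl, -0.25 to 0.72 for Tpi1 and -0.16 to 0.37 for Pgk1. For P9 against FFSS they ran from -0.00691 to 0.40 for Egln1, -0.29 to 0.32 for Ankrd37, -0.18 to 0.89 for Pdk1, -0.73 to 0.36 for Slc2a3, -0.55 to 0.50 for Pfkl, -0.00794 to 0.18 for Gapdh, -0.34 to 0.18 for Pgk1, -0.32 to 1.35 for Slc16a3 and -0.21 to 0.0554 for Kdm3a. The causes of these changes were not tested.

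With 3 libraries a group, low genes limit what can be read: Ankrd37 rested on 11 to 42 fragments a library and Slc2a3 on 10 to 185.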
